A study of Homo sapiens with 6 samples.

Results

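CDKN2A, CDKN2B and MTAP lie side by side on the short arm of chromosome 9, and their surroundings were described here from ATAC-seq peak lists of lines of T-ALL, the acute lymphoblastic leukaemia of T-cell precursors. In ATAC-seq a transposase, Tn5, inserts adapters into accessible DNA, and a peak marks a position where the sequenced tags piled up. All peaks overlapping 20000000 to 24500000 of chromosome 9 (build hg19) were taken, a window that holds the interferon genes, MTAP (21.80 to 21.87 Mb), CDKN2A (21.97 to 21.99 Mb) and CDKN2B (just above it, up to 22.01 Mb). The lists held 152 such intervals of 116055, which merged into 62 regions of 40110. KOPT-K1 had the most of these intervals, 35, followed by DND-41 with 29, HBP-ALL with 26, MOLT-4 with 25, CCRF-CEM with 21 and TALL-1 with 16. The lists differ in size, and as a share of each list the order was partly another. The share was 0.193% in KOPT-K1, 0.162% in DND-41, 0.131% in MOLT-4, 0.118% in HBP-ALL, 0.0969% in TALL-1 and 0.0939% in CCRF-CEM.

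The 6 groups were the established T-ALL lines TALL-1, MOLT-4, KOPT-K1, HBP-ALL, DND-41 and CCRF-CEM, each with 1 library and no treatment, all grown in RPMI-1640 with serum and antibiotics per the labels. The labels give no control sample and no genotype. No test between lines was possible from 1 library each, and no value below has a replicate error. A difference between lines cannot be told apart from a difference between preparations. The labelled cell type was not checked against marker genes, since no hg19 annotation was used here.

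CDKN2A encodes unrelated proteins from separate starts. Its downstream start gives p16INK4a, an inhibitor of the cyclin D kinases CDK4 and CDK6 that keeps RB1 active, and its upstream start gives p14ARF, which restrains MDM2 and so stabilises p53. CDKN2B encodes p15INK4b, another inhibitor of CDK4 and CDK6, and the long noncoding RNA CDKN2B-AS1 (ANRIL) runs antisense to CDKN2B. MTAP encodes methylthioadenosine phosphorylase, a methionine salvage enzyme that is often lost together with CDKN2A. Loss of this part of 9p21 is among the most frequent lesions of T-ALL.

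The promoters are shown because several of the peaks described below lie at or near these starts. Sequences are RefSeq's, in build GRCh38.p14, with 250 bases before and 50 after each start; all 3 genes matched, CDKN2A with 2 starts. Capitals mark GGGCGG (the GC box) and CCAAT on either strand. The windows are chr9:21995275-21995574 for the upstream and chr9:21974808-21975107 for the downstream CDKN2A start, chr9:22009256-22009555 for CDKN2B (these on the minus strand), chr9:21802386-21802685 for MTAP and chr9:21994541-21994840 for CDKN2B-AS1 (both on the plus strand).
CDKN2A, upstream start: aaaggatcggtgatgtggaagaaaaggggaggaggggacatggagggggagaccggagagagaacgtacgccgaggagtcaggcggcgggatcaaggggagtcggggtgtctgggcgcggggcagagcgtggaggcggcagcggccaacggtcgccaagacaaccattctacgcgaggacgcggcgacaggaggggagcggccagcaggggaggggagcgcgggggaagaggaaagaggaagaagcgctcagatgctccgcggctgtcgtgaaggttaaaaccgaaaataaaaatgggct
CDKN2B-AS1: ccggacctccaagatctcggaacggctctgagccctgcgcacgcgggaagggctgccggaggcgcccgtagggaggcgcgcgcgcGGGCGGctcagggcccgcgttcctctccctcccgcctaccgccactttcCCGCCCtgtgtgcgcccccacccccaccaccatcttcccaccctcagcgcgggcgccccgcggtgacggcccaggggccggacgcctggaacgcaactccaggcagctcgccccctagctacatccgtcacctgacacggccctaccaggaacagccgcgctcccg
CDKN2A, downstream start: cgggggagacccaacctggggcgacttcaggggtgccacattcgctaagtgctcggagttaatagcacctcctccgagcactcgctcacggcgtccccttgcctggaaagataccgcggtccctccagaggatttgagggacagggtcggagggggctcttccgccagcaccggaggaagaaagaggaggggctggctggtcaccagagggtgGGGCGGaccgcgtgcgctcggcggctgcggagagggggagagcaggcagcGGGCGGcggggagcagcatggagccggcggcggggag
CDKN2B: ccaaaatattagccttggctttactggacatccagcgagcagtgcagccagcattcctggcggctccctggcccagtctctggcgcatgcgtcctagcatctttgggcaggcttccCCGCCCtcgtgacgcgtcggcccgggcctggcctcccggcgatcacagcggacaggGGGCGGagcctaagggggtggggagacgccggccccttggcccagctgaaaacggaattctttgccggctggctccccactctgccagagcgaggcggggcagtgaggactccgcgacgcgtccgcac
MTAP: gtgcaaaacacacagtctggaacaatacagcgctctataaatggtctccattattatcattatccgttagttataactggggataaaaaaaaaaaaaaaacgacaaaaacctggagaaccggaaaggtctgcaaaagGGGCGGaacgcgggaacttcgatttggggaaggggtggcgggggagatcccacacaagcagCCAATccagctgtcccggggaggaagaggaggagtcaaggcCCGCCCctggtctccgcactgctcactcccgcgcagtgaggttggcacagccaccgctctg

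Each of these windows except that of the upstream CDKN2A start held 2 matches to GGGCGG, and the upstream one held none; 15786 of 35116 RefSeq promoters held at least 1. CCAAT was found once, in MTAP, and in 34.6% of all promoters. The CG dinucleotide occurred 28 times in the upstream CDKN2A window, 36 times in that of CDKN2B-AS1, 26 times at the downstream CDKN2A start, 25 times at CDKN2B and 15 times at MTAP, against a median of 14 over all promoters. A match describes letters and not a bound site. The upstream CDKN2A start and the CDKN2B-AS1 start lay 533 bp apart on opposite strands, so a peak covering both cannot be given to either.

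The peaks were tied to these starts by the gene intervals above, which are given to 10 kb, and by spacing. In GRCh38.p14 the downstream CDKN2A start lies 172221 bp from the MTAP start, and in the hg19 lists the summit of the peak there lay 172277 bp from the MTAP summit in DND-41 and 172248 bp in KOPT-K1. The CDKN2B-AS1 and upstream CDKN2A starts lie 192155 and 192688 bp from the MTAP start. The strongest summits of the peaks nearest these spacings lay 191236 bp from the MTAP summit in KOPT-K1, 191580 bp in DND-41, 191637 bp in HBP-ALL, 191646 bp in TALL-1 and 191715 bp in MOLT-4. Each distance was shorter than the spacing of either start, and it was shortest in KOPT-K1. The spacings come from different builds and are set side by side without conversion.

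The CDKN2A interval itself was overlapped by 2 peaks in KOPT-K1 and 1 in DND-41, and by none in the other 4 lines. Counted within 10 kb of it, 5 of the 6 lines had a called peak: KOPT-K1 had 3, DND-41 had 2, and HBP-ALL, MOLT-4 and TALL-1 had 1 each, which lay just above the end of the interval as given to 10 kb. CCRF-CEM had 0. Several T-ALL lines are commonly described as lacking CDKN2A, and the identity of the libraries was not checked here. The height of a peak is given as its pileup, meaning how many tags overlapped its strongest summit, recovered from the authors' values; it rises with the depth of a library and is not scaled unless stated. A missing peak means only that no summit reached the authors' threshold, and absent DNA, closed chromatin and low coverage cannot be told apart there.

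**Figure D1:**
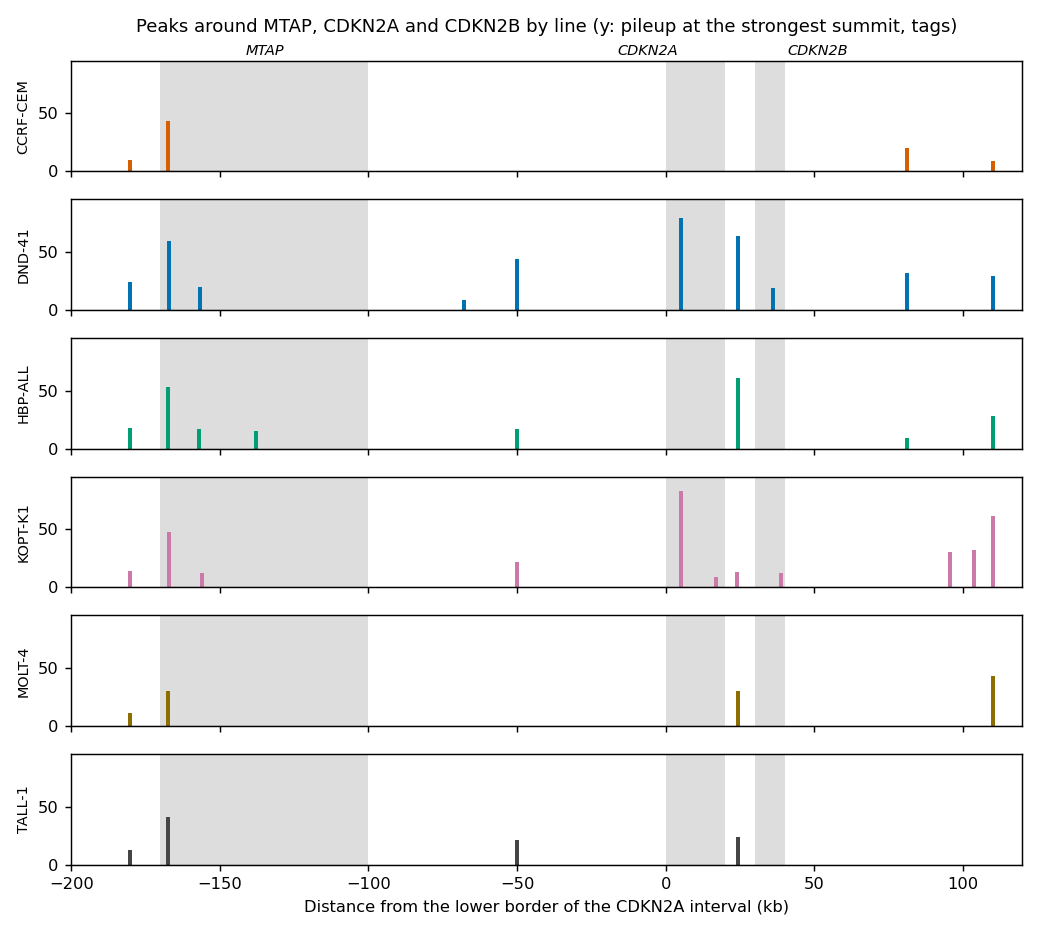
Peaks around MTAP, CDKN2A and CDKN2B in each of the 6 lines, 1 library per line. The x axis is the distance from the lower border of the CDKN2A interval in kb, bar height is the pileup (tags stacked at the strongest summit), and grey bands are the gene intervals. CCRF-CEM has no bar between the MTAP start and the region above CDKN2B, and only DND-41 and KOPT-K1 have the tall bar just inside CDKN2A, at 79 and 83 tags.

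At the downstream CDKN2A start, the origin of p16INK4a, DND-41 and KOPT-K1 had peaks and the other 4 lines had none. The merged region ran from 21974624 to 21975643. In DND-41 the peak had a pileup of 79 tags over a local background of 8.09 (authors' fold enrichment 8.80, −log10 p 49.7). In KOPT-K1 it had 83 tags over 7.88 (fold 9.46, −log10 p 54.6). These were the tallest peaks from MTAP to CDKN2B in both lines, and only 5.97% of DND-41 peaks and 4.21% of KOPT-K1 peaks stood as high.

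This split between lines was uncommon for peaks of such height. Of 406 regions with peaks in DND-41 and KOPT-K1 only, it was the 1 region whose lower pileup reached 79 tags, and the median lower pileup of those regions was 13. Among all 5436 regions with peaks in exactly 2 lines, 3 reached it. Taken the other way, 633 regions had at least 79 tags in both DND-41 and KOPT-K1; 611 of them (96.5%) held peaks in all 6 lines and 18 in 5 lines. The comparison was chosen after the values were seen and is a description.

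The height elsewhere gives a scale for the missing peaks. Multiplying the pileups of DND-41 and KOPT-K1 by the median pileup ratio of the missing line over all regions shared by the 6 lines gave 64.4 to 73.8 tags for CCRF-CEM, 74.8 to 84.3 for HBP-ALL, 70.8 to 79.4 for MOLT-4 and 86.9 to 96.1 for TALL-1. The number of tags a call needs rises with the local background. If the backgrounds of DND-41 and KOPT-K1 at this start, 8.09 and 7.88, are scaled by the same ratios, a −log10 p of 5 needed 20 to 21 tags in CCRF-CEM, 22 to 23 in HBP-ALL, 21 to 22 in MOLT-4 and 24 to 25 in TALL-1. The true background of a line without a peak is not in the lists, and the scaling assumes that the 1 ratio per pair of lines holds here.

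Near the upper end of CDKN2A, where the p14ARF start and the CDKN2B-AS1 start lie close together on opposite strands, the pattern was another. The merged region from 21993756 to 21995933 held peaks in 5 lines, and CCRF-CEM was the line without one. The pileup was 64 tags in DND-41, 61 in HBP-ALL, 30 in MOLT-4, 24 in TALL-1 and 13 in KOPT-K1. KOPT-K1, the highest line at the downstream start, was thus the lowest of the 5 here, while HBP-ALL was nearly level with DND-41 and had no peak at the downstream start. The 5 peaks did not reach equally far up. DND-41, HBP-ALL and MOLT-4 had further summits at 21995386, 21995398 and 21995388, with 42, 36 and 30 tags. The KOPT-K1 and TALL-1 intervals ended below these, at 21994200 and 21994872. A peak in this region in 5 lines thus need not be a peak at the p14ARF start in all 5. The hg19 position of that start was not known here, so which intervals reach it cannot be said.

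The widths of the interval differed too but did not follow the heights, since MOLT-4 had the widest. The width was 1671 bp in DND-41, 1503 bp in HBP-ALL and 1765 bp in MOLT-4, against 637 bp in TALL-1 and 445 bp in KOPT-K1, where the median widths over all peaks were 507 to 531 bp in DND-41, KOPT-K1, MOLT-4 and TALL-1 and 491 bp in HBP-ALL. The MOLT-4 interval held 6 summits with 21 to 30 tags each, and 23 of the 19114 MOLT-4 peaks were as wide or wider and 4 had as many summits, this one included. The DND-41 interval held 4 summits and the HBP-ALL interval 5. The KOPT-K1 interval ended at 21994200, below the lowest HBP-ALL, DND-41, MOLT-4 and TALL-1 summits, which lay at 21994304, 21994347, 21994351 and 21994369. Scaled as above, the 5 lines' pileups correspond to 11.6 to 52.3 tags in CCRF-CEM, against 8 to 23 tags needed for a call at the 5 backgrounds scaled likewise. The lower ends of both ranges come from the same line, KOPT-K1, with 13 tags over a background of 1.42. The lowest scaled pileup thus belongs with the lowest need, and not with the highest. CCRF-CEM lacked a peak alone at 971 regions in all, and at 23.3% of them the median pileup of the other lines was at least as high as the 30 tags found here.

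**Figure D2:**
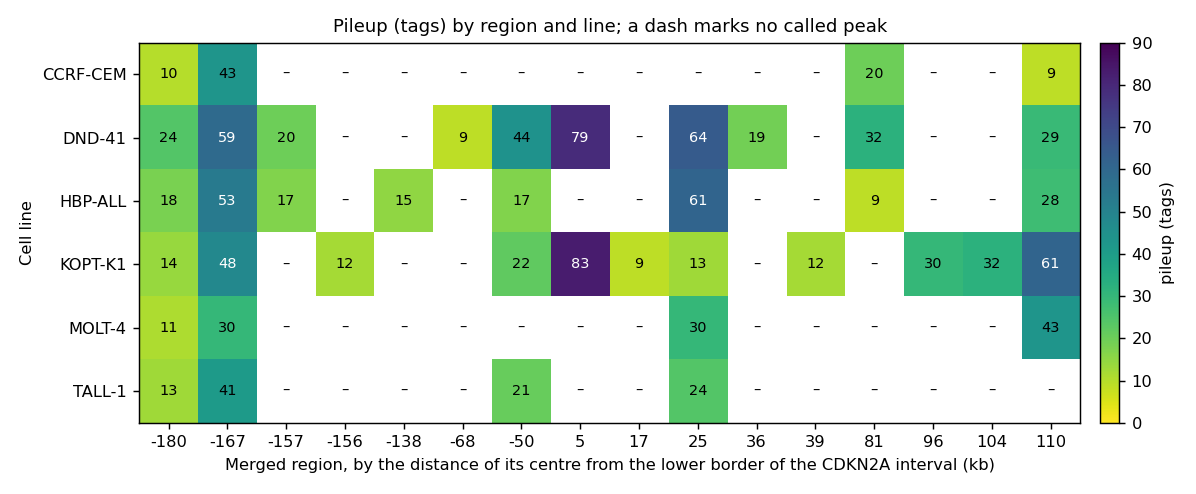
Pileup in tags at the strongest summit for each merged region (columns, by distance of the region's centre from the lower border of the CDKN2A interval in kb) and line (rows); a dash marks no called peak. The MTAP start, the second column, is filled in all 6 lines, the downstream CDKN2A start at 5 kb in 2 lines and the upper end of CDKN2A at 25 kb in 5 lines.

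CDKN2B, the p15INK4b gene, had a peak within its interval in DND-41 and KOPT-K1 only. In DND-41 it ran from 22005119 to 22006295 with 3 summits of 13 to 19 tags, and lay 203417 bp from the MTAP summit. In KOPT-K1 it ran from 22008459 to 22008706 with 12 tags, and its summit lay 205848 bp from the MTAP summit, where RefSeq has the CDKN2B start at 206669 bp. These peaks did not overlap and both were low: 69.2% of DND-41 peaks and 89.8% of KOPT-K1 peaks had at least as many tags. Scaled to the lines without a peak, the DND-41 peak corresponds to 15.5 to 20.9 tags, against 12 to 14 needed at its scaled background, and the KOPT-K1 peak to 10.7 to 13.9 tags, against 9 to 10 needed. The margin at both was small. A KOPT-K1 peak of 9 tags inside CDKN2A, from 21986998 to 21987273, stood near the lowest pileup called in that list, 8 tags.

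MTAP had a peak at its start in all 6 lines. Pileups at the region from 21802310 to 21803523 ran from 59 tags in DND-41 and 53 in HBP-ALL to 41 in TALL-1 and 30 in MOLT-4, with KOPT-K1 at 48 and CCRF-CEM at 43. The relative height is the log2 pileup minus the mean of the log2 pileups of the 6 lines. The median of 9042 shared regions was then set to 0 in every line. At the MTAP start the relative height was 0.30 in DND-41, 0.22 in HBP-ALL, 0.15 in CCRF-CEM and 0.12 in KOPT-K1. TALL-1 stood at −0.34 and MOLT-4 at −0.51. The interquartile range of the 9042 regions lay between −0.27 and 0.27 in MOLT-4 and between −0.30 and 0.29 in TALL-1, so both lines were lower here than at most shared regions. Further MTAP peaks were small and not shared widely: DND-41 and HBP-ALL had 20 and 17 tags at 21813085 to 21813422, KOPT-K1 had 12 tags at 21813797 to 21814015, and HBP-ALL had 15 tags at 21832134 to 21832380.

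Between MTAP and CDKN2A, the region from 21919561 to 21920264 separated the lines as well. DND-41 had 44 tags there, KOPT-K1 22, TALL-1 21 and HBP-ALL 17, with no peak in CCRF-CEM or MOLT-4. Scaled pileups were 14.6 to 35.9 tags for CCRF-CEM and 15.9 to 39.4 for MOLT-4, against 9 to 13 and 9 to 14 tags needed at the scaled backgrounds. This region formed the lower flank of the peak-free span around CDKN2A in the 4 lines that had it.

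The span, the longest stretch between neighbouring peaks that touched the CDKN2A interval, was 247 kb in CCRF-CEM, 191 kb in MOLT-4, 74.0 kb in TALL-1, 73.9 kb in HBP-ALL, 54.5 kb in KOPT-K1 and 54.4 kb in DND-41. In CCRF-CEM it ran from 21803524 to 22050831 and so held all of CDKN2A and CDKN2B. Its flanks were the MTAP start with 43 tags and a peak of 20 tags at 22050832 to 22051229. All 5 other lines had peaks inside it, in 10 merged regions. Of these, 4 held peaks in at least 2 lines, and the others were peaks of DND-41, HBP-ALL or KOPT-K1 alone with 9 to 19 tags.

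The MOLT-4 span, 21803349 to 21994168, was flanked by the MTAP start and by the interval at the upper end of CDKN2A, with 30 tags each. It held 7 regions of the other lines, with peaks of DND-41, HBP-ALL, KOPT-K1 and TALL-1. The HBP-ALL span (21920035 to 21993962) and the TALL-1 span (21920226 to 21994235) each held 2 regions, the downstream CDKN2A start and the weak KOPT-K1 peak, with peaks of DND-41 and KOPT-K1. Their lower flanks had 17 and 21 tags and their upper flanks 61 and 24. In DND-41 (21920265 to 21974623) and KOPT-K1 (21920208 to 21974675) the span ended at the downstream CDKN2A start and held 0 regions of other lines.

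Length alone did not set these spans apart. Among stretches that held at least 1 region of another line, 26.0% of those in CCRF-CEM were as long or longer, and 36.6% in MOLT-4. By the number of other lines' regions missed in a row the CCRF-CEM span stood higher: 35 of 9132 stretches (0.383%) missed 10 or more, and the highest number was 27. This rank depended on weak peaks. With only peaks of a −log10 p of at least 10 the span missed 4 regions, and 10.3% of stretches missed as many; with equal numbers of the strongest peaks it missed 6, and 5.35% of stretches missed as many. These alternatives were chosen after seeing the data. In MOLT-4, 527 of 8586 (6.14%) missed 7 or more. In HBP-ALL 47.2% and in TALL-1 56.9% of stretches missed 2 or more.

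The share of other lines' regions that were called counts largely the same regions as the spans, so it is no separate support: the 10 regions that CCRF-CEM missed are those of its span, and the 9 that MOLT-4 missed include the 7 of its span. From MTAP to CDKN2B, CCRF-CEM had a peak at 1 of 11 regions that held a peak of another line (9.09%, exact Clopper-Pearson 95% interval 0.23% to 41.3%), against 46.9% of such regions over chromosomes 1 to 22 and X. MOLT-4 had 2 of 11 (18.2%, 2.28% to 51.8%), against 44.8%, and TALL-1 3 of 11 (27.3%, 6.02% to 61.0%), against 38.4%. DND-41 had 5 of 9 (55.6%, 21.2% to 86.3%), against 42.2%, HBP-ALL 4 of 10 (interval 12.2% to 73.8%), against 48.6%, and KOPT-K1 4 of 8 (interval 15.7% to 84.3%), against 42.6%. Where 3 or more other lines had a peak, CCRF-CEM had 1 of 3 (33.3%, 0.84% to 90.6%), against 76.4% of such regions genome-wide, and MOLT-4 had 2 of 3 (66.7%, 9.43% to 99.2%), against 85.8%. The other 4 lines had 3 of 3, against 76.9% in TALL-1, 84.5% in HBP-ALL, 83.5% in DND-41 and 83.9% in KOPT-K1. With 3 regions these shares can hardly be placed against the genome. The intervals cover counting error only and treat neighbouring regions as independent.

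**Figure D3:**
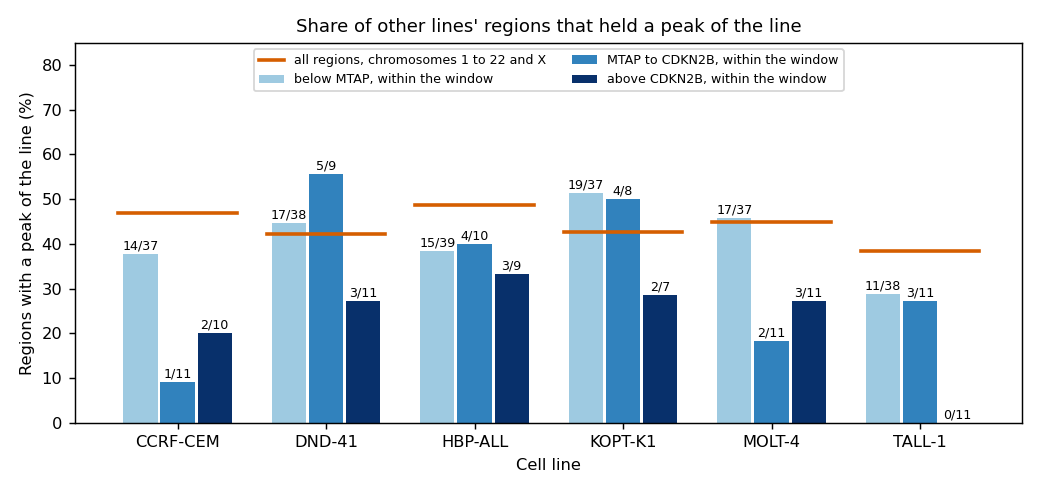
Share of merged regions with a peak of another line that also held a peak of the line named on the x axis, in percent, for the 3 parts of the window (bars, with counts above them) and for all regions on chromosomes 1 to 22 and X (orange lines). CCRF-CEM has 1 of 11 regions from MTAP to CDKN2B, and TALL-1 has 0 of 11 above CDKN2B.

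Above CDKN2B every line called a smaller share of other lines' regions than over the genome, and TALL-1 called none. A region with a peak of a single line counts as missed by every other line. These shares are thus not separate results of each line. TALL-1 had a peak at 0 of 11, against 38.4% over the genome; 3 counts of 11 would be 27.3%, and the exact interval reaches 28.5%. KOPT-K1 had 2 of 7 (exact interval 3.67% to 71.0%), HBP-ALL 3 of 9 (7.49% to 70.1%) and CCRF-CEM 2 of 10 (2.52% to 55.6%). MOLT-4 and DND-41 each had 3 of 11 (6.02% to 61.0%). Each of these intervals covers the genome share of its line, unlike that of TALL-1. Where 3 or more other lines had a peak, TALL-1 had 0 of 3, with an exact upper limit of 70.8%. Its first peak above CDKN2B lay at 24698999 to 24699330, outside the window. The stretch from 21994873 to 24698998 was 2.70 Mb long and held 13 regions of other lines, of which 4 held peaks in at least 2. The longest stretch without a peak that reached into the window was 1.35 to 3.30 Mb in the other lines, starting at 22209349 or above. In CCRF-CEM and DND-41 it ran past the end of the window. DND-41 also had no peak from its interval ending at 22080271 to the one starting at 23590464.

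The region that TALL-1 alone lacked ran from 22079432 to 22080448. It had 61 tags in KOPT-K1, 43 in MOLT-4, 29 in DND-41, 28 in HBP-ALL and 9 in CCRF-CEM. Scaled to TALL-1 these correspond to 12.2 to 70.6 tags, against 8 to 25 needed for a call at the scaled backgrounds. The lower ends of both ranges come from CCRF-CEM, with 9 tags over a background of 0.80. Of the 630 regions that TALL-1 alone lacked, 37.1% had a median pileup in the other lines at least as high as the 29 found here. KOPT-K1 had further peaks of 30 and 32 tags at 22065366 to 22065934 and 22073489 to 22073840 that no other line shared, with local backgrounds of 5.87 and 5.49, against a median of 2.65 over its list. CCRF-CEM, DND-41 and HBP-ALL had 20, 32 and 9 tags at 22050747 to 22051244, and KOPT-K1, MOLT-4 and TALL-1 had no peak there. In the RefSeq gene order DMRTA1 and then ELAVL2 are the next protein-coding genes above CDKN2B.

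Below MTAP, on the side of the interferon genes, the share of other lines' regions that a line called ran from 28.9% in TALL-1 to 51.4% in KOPT-K1. RefSeq lists 16 protein-coding genes with interferon symbols between MLLT3 and ELAVL2, signalling proteins made in response to viruses. Of the 62 regions of the window 40 lay below MTAP, and the number of peaks there ran from 13 in TALL-1 to 22 in KOPT-K1, with 17 in CCRF-CEM and 20 in MOLT-4. CCRF-CEM called 14 of 37 regions of other lines there (37.8%, against 46.9% over the genome) and DND-41 17 of 38 (44.7%, against 42.2%). HBP-ALL called 15 of 39 (38.5%, against 48.6%) and KOPT-K1 19 of 37 (51.4%, against 42.6%). MOLT-4 called 17 of 37 (45.9%, against 44.8%) and TALL-1 11 of 38 (28.9%, against 38.4%). The strongest peak of every line in the window lay in this part, at 20683679 to 20684780, with 90 tags in HBP-ALL, 87 in DND-41, 84 in KOPT-K1, 82 in TALL-1, 67 in MOLT-4 and 65 in CCRF-CEM.

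Regions shared by all 6 lines made up a smaller share of the window than of the genome, though no interval was computed for these shares. Of the 62 regions 8 (12.9%) held peaks in all 6 lines, against 22.6% of all 40110 regions. Peaks in 5 lines were found at 4 (6.45%, against 6.53%), and a peak in 1 line at 27 (43.5%, against 43.2%). Regions with peaks in 2 lines made up a larger share, 14 (22.6%, against 13.6%). Peaks in 3 lines were found at 7 (11.3%, against 8.02%) and in 4 lines at 2 (3.23%, against 6.15%). All 8 regions shared by the 6 lines lay at or below the MTAP start. Pileups at the region from 20622094 to 20623011 ran from 41 tags in CCRF-CEM to 64 in TALL-1, and at 20640288 to 20640997 from 32 in CCRF-CEM to 44 in TALL-1. At 20242582 to 20243132 they ran only from 16 in HBP-ALL and MOLT-4 to 22 in CCRF-CEM. The weakest, at 21253063 to 21253523, had 8 tags in KOPT-K1 and 20 in CCRF-CEM.

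At 21334806 to 21335703 DND-41 had 57 tags and KOPT-K1 47, while HBP-ALL had 33, MOLT-4 30, CCRF-CEM 25 and TALL-1 23. The relative log2 height there was 0.65 in DND-41, 0.49 in KOPT-K1 and −0.78 in TALL-1. At 21789567 to 21789907, just below MTAP, DND-41 had 24 tags and the other lines 10 to 18. MOLT-4 stood at −0.31 and −0.51 at the last pair of shared regions before its span, and TALL-1 at −0.36 and −0.34, but CCRF-CEM at −0.31 and 0.15.

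**Figure D4:**
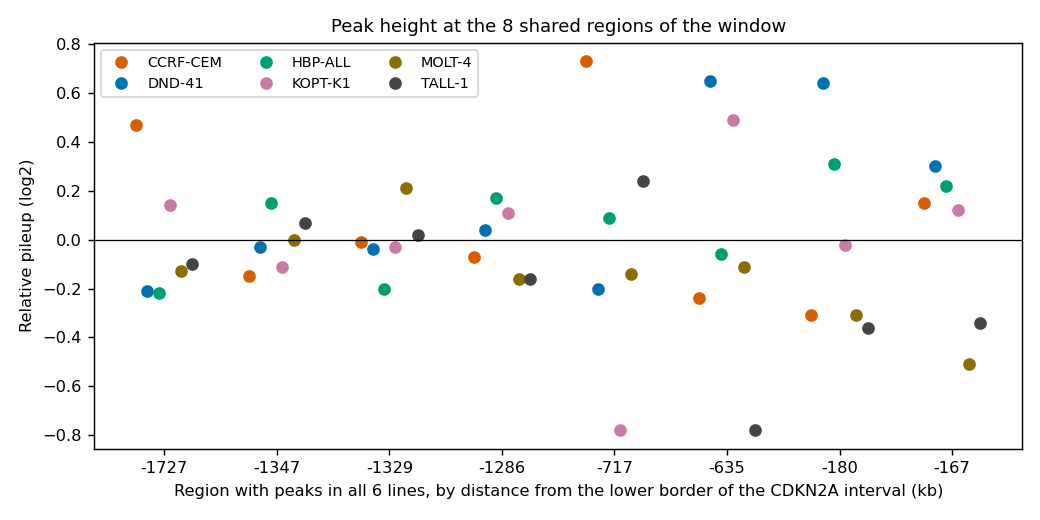
Relative pileup at the 8 regions of the window with peaks in all 6 lines, 1 point per line. It is the log2 pileup minus the 6-line mean of the log2 pileups, with each line's median over all shared regions set to 0. The x axis gives the distance of each region from the lower border of the CDKN2A interval in kb. At the MTAP start, the point farthest right, CCRF-CEM lies at 0.15 and MOLT-4 at −0.51.

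Over the whole short arm of chromosome 9 the lines lay close together. The median relative log2 height over 110 shared regions below 45734567 was 0.13 in KOPT-K1, 0.12 in HBP-ALL, 0.09 in CCRF-CEM, −0.07 in DND-41, −0.13 in MOLT-4 and −0.17 in TALL-1. Over the 262 shared regions of the long arm KOPT-K1 stood at −0.11, HBP-ALL at 0.14, CCRF-CEM at 0.07, DND-41 at −0.05, MOLT-4 at 0.21 and TALL-1 at −0.24. MOLT-4 thus differed most between the arms, and centred on its long arm its short arm stood at −0.34. Within the window the medians over the 8 shared regions lay between −0.14 in MOLT-4 and 0.12 in HBP-ALL. Shared regions need a peak in every line and so cannot show a loss that removes a peak.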

How the data were processed

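ATAC-seq peak lists of 6 T-ALL lines, 1 per library, were analysed. Peaks were called per library; MACS2 2.1.1.2016030, SAMtools, Picard and Bowtie2 are named per the submitters' processing notes, with build hg19 and with order, settings and any Tn5 shift not given in the sources used here. The deposited lists have no header and give, per summit, the authors' score, fold enrichment over the local background (a ratio), and a p-value and a q-value, each as −log10. Read totals are not known. The lowest −log10 p lay just above 5 in every list.

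Lines of a list sharing an interval on chromosomes 1 to 22 and X were joined, keeping the strongest summit, and overlapping intervals (1 bp or more) of different lines were merged. Pileup t and background c were solved from fold = (t + 1) / (c + 1) and a p-value equal to the upper Poisson tail beyond t given c, within 0.001 of the −log10 p and below 250. The lowest recovered background, which rises with depth, was 0.69 in CCRF-CEM, 0.92 in MOLT-4, 1.07 in KOPT-K1, 1.14 in DND-41, 1.23 in HBP-ALL and 1.38 in TALL-1. Pileups are not scaled to depth unless stated. Recovery, merging and the span search were tested on simulated data. The simulated backgrounds did not reach down to the lowest ones given above, so recovery was not tested for peaks over such backgrounds.

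The peaks named are those within 10 kb of the members, the flanks of each span, the regions shared by all lines and the strongest peak per line; other peaks from MTAP to 100 kb above CDKN2B, and those missed by 1 line, were named after their values were seen. Members and lists were chosen with earlier results of these data known. Scaled pileups and backgrounds, shares by part of the window, the comparison of regions with peaks in exactly 2 lines and the spacing of starts were added after seeing the data. Alternatives were a −log10 p of at least 10, equal numbers of peaks, other overlaps and span ends, and other scalings. The reference table is of GRCh38.p14, so no gene coordinates were taken from it for the peaks, and the planned lists of pathway genes and cell type markers were not analysed here. The tools were scipy 1.17.1, pandas 2.3.3, numpy 2.4.6 and matplotlib 3.10.9 in Python 3.11.15.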

Additional observations from a re-analysis of the deposited data

How the results depend on the processing

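A span or count is given here where it moved by more than 1.5 times, and a log2 value where it moved by more than 0.1. The spans of CCRF-CEM, HBP-ALL, MOLT-4 and TALL-1 stayed within that bound under every alternative tried. With only peaks of a −log10 p of at least 10, the KOPT-K1 span was 89.7 kb against 54.5 kb and held 2 regions of other lines against 0, and the window held 17 KOPT-K1 peaks against 35 and 12 MOLT-4 peaks against 25. Regions of other lines inside the span numbered 4 in CCRF-CEM, 3 in MOLT-4, 1 in HBP-ALL and 1 in TALL-1 with that threshold or when at least 2 other lines were asked for, and 6, 3, 1 and 1 with equal numbers of the strongest peaks, against 10, 7, 2 and 2. The span holding the midpoint of CDKN2A was 18.5 kb in DND-41 and 11.4 kb in KOPT-K1. On the short arm of chromosome 9, fold enrichment gave 0.01 in KOPT-K1, −0.01 in HBP-ALL and −0.03 in TALL-1. Centring on the long arm gave 0.24 in KOPT-K1, 0.07 in TALL-1, −0.02 in HBP-ALL and −0.34 in MOLT-4, so the sign of HBP-ALL and TALL-1 there depends on the centring. The share of stretches that missed as many regions as the span was 10.3% in CCRF-CEM and 30.4% in MOLT-4 with a −log10 p of at least 10, and 5.35% and 28.8% with equal numbers of peaks, against 0.383% and 6.14%; this comparison was added after seeing the data. The cause was not tested. No paired analysis was possible because each line has 1 library, and no replicate could be left out.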
